A study of Mus musculus with 2 samples.

Results

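Tbc1d1 and Tbc1d4 (also called AS160) encode a pair of closely related GTPase-activating proteins (GAPs) for Rab proteins, the small GTPases that direct membrane vesicles. They are 2 of the 168 genes in a deposited table of GAPs and guanine nucleotide exchange factors (GEFs), called the regulator table here. The 2 genes were followed through 5 of its 374 probe sets, groups of array probes meant to read 1 transcript. All probe sets whose gene name in that table was Tbc1d1 or Tbc1d4 were taken, 3 for Tbc1d1 (gene ID 57915) and 2 for Tbc1d4 (gene ID 210789). A further probe set, 1447016_at, names Tbc1d1 beside a second locus and was kept apart, because its signal cannot be given to 1 gene. All 5 members were called present in at least 1 group, and 4 were called present in both.

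A GAP ends the signal of its Rab by speeding up the hydrolysis of bound GTP. In muscle and fat cells, Tbc1d4 and Tbc1d1 hold vesicles carrying the glucose transporter GLUT4 inside the cell. Phosphorylation by Akt, downstream of the insulin receptor, or by AMPK, downstream of energy stress and muscle contraction, relieves that brake, and 14-3-3 proteins bind the phosphorylated sites. Podocytes, the epithelial cells that wrap the glomerular capillaries of the kidney, are themselves insulin-responsive cells.

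The study compared 2 states of 1 conditionally immortalized mouse podocyte line, with 1 array per state. Both states carry the Immorto transgene, which keeps cells dividing under permissive conditions, in an otherwise wildtype background. Undifferentiated cells were kept dividing at 33 °C on collagen I with interferon gamma, and the permissive medium is described as RPMI with 10% serum and 100 U/ml interferon gamma. Differentiated cells had been moved to 37 °C for at least 10 days in 5% serum without interferon gamma, and had stopped growing. RNA was prepared with a Qiagen kit from the undifferentiated and an Ambion kit from the differentiated cells. Temperature, interferon, serum, growth arrest and RNA kit therefore changed together and cannot be told apart. With 1 array per state no test across samples was possible, no p-value is given, and no difference has a replicate check. The regulator table gives a standard error for each signal, read here as the technical error of the signal model over the probes of 1 array (model SE). Of 11 podocyte markers looked for, 0 are among the named genes, so the cell type could not be checked.

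There are 2 deposited readings of the differentiated state and they do not match. A second deposited table, the whole-array table, holds 1 signal for each of 45037 probe sets and both states. Undifferentiated signals matched between the tables to within 0.005 units for 374 of 374 probe sets, and differentiated signals for 0 of 374. Among 293 probe sets called present in differentiated cells, the median fold between both differentiated readings was 2.14, and 155 of them (52.9%) differed by at least 2-fold. Where the second reading came from is not stated in the labels or headers, so values of both are given below, by table.

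Tbc1d1 has 2 annotated start regions on the plus strand of chromosome 5. Array probe sets do not show from which start an RNA came, so both windows are printed as the promoters from which the measured RNA can arise. Each runs from 250 bases before to 50 bases after the start (RefSeq, GRCm38.p6). The windows are chr5:64160010-64160309 and chr5:64230107-64230406. Capitals mark GC boxes (GGGCGG on either strand).

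Tbc1d1 window 1: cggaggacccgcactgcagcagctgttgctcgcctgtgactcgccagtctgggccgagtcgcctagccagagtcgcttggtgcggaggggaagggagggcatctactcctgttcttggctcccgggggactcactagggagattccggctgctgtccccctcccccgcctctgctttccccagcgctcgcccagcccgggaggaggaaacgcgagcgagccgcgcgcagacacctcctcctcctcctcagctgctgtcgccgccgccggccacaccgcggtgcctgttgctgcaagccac
Tbc1d1 window 2: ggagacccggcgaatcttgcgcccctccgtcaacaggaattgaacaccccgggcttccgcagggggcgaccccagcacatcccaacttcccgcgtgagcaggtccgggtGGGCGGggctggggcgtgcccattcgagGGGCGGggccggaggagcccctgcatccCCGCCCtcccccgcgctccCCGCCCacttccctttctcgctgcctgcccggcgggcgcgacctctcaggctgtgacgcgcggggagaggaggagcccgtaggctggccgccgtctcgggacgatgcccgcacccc

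Window 2 held 4 GC boxes and window 1 held 0. Among 32851 promoter windows of the same length, 35.7% held at least 1. The single Tbc1d4 window, on the minus strand of chromosome 14, held 1. Because interferon gamma was present in only 1 group, a pair of interferon-linked motifs was searched on both strands. These were the gamma-activated site (TTCNNNGAA), held by 8.30% of all windows, and the core bound by interferon regulatory factors (GAAANNGAA), held by 8.56%. The first had no match in the 3 windows. The second had 1, in Tbc1d1 window 2, with its first base at position -58 from the start, beside the GC boxes and not overlapping them. A form longer by 1 base, which was searched first, had 0 matches in the 3 windows and was held by 3.44% of all windows. A TATA box (TATAAA), which 13.6% of all windows held, had no match. A match is letters only and does not show that a factor binds there, and a missing match says only that these letters are not in these windows.

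All 3 Tbc1d1 probe sets of the regulator table were lower in differentiated cells. Probe set 1419446_at read 169 ± 5.51 (model SE) in undifferentiated and 50.8 ± 6.24 in differentiated cells. Probe set 1419447_s_at read 345 ± 61.1 and 135 ± 38.4. Probe set 1419448_at read 61.6 ± 3.23 and 20.6 ± 5.73. In each of the 3 the intervals of 1 model SE around the signals did not overlap between states. As in any bulk sample, fewer cells expressing the gene and less RNA per cell cannot be told apart.

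The log2 difference, differentiated minus undifferentiated, was -1.73 ± 0.18 (propagated model SE) for 1419446_at, 3.32-fold lower and 9.44 model SE from 0. It was -1.58 ± 0.41 for 1419448_at, 3.87 model SE from 0. It was -1.36 ± 0.49 for 1419447_s_at, 2.56-fold lower and 2.80 model SE from 0. The 3 values span 0.37 on the log2 scale, less than the model SE of the least precise one. Thus 3 of 3 Tbc1d1 probe sets were at least 2-fold lower, where 8.33% of the 264 probe sets present in both groups were (22 probe sets) and 16.3% were at least 2-fold higher. The suffix of 1419447_s_at marks probes that can match more than 1 transcript. The 3 share 1 target accession and were read on 1 pair of arrays, so they are not independent of each other. A shared accession does not show that they read only 1 transcript. Among the 264, 9 had a lower value than 1419446_at, 11 than 1419448_at and 15 than 1419447_s_at.

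**Figure D1:**
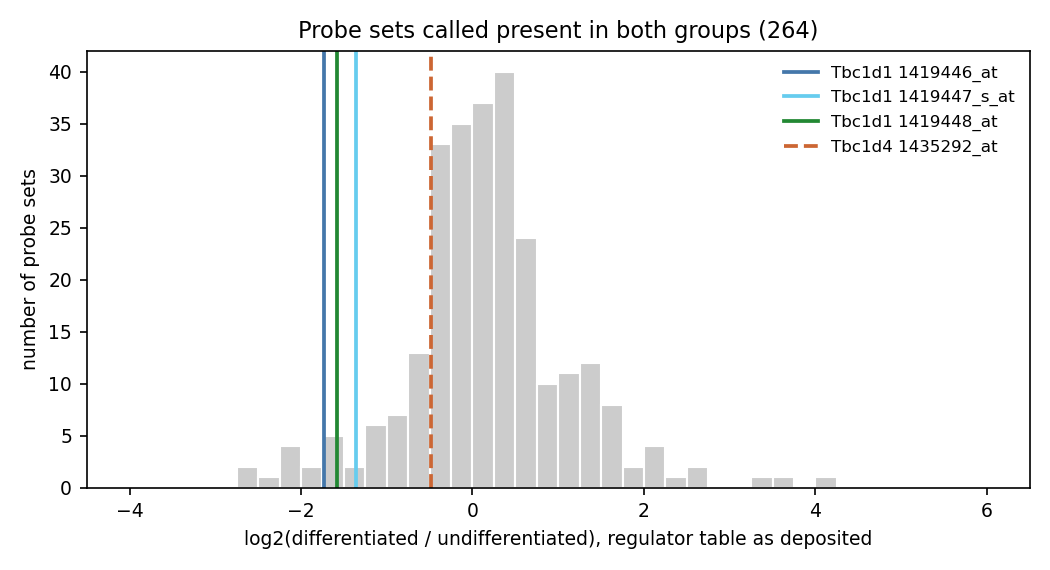
Histogram of log2(differentiated / undifferentiated) over the 264 probe sets called present in both groups of the regulator table (x axis: log2 difference as deposited; y axis: number of probe sets), with vertical lines at the Tbc1d1 probe sets (solid) and the Tbc1d4 probe set present in both groups (dashed). The Tbc1d1 lines at -1.73, -1.58 and -1.36 lie in the lower tail and the Tbc1d4 line at -0.48 near the bulk.

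The proportions between the Tbc1d1 probe sets of that table moved by less than 1.5-fold between states. The signal of 1419446_at was 2.74 times that of 1419448_at in undifferentiated and 2.47 times in differentiated cells. That of 1419447_s_at was 5.59 and 6.54 times that of 1419448_at, and that of 1419446_at was 0.489 and 0.377 times that of 1419447_s_at. Of 34 genes with at least 3 probe sets present in both groups, 11 had a narrower range of log2 differences than Tbc1d1, and the median range was 0.51. In 23 of the 34 all probe sets had the same sign, and in 2 all were at least 2-fold lower. These were Tbc1d1 and Usp6nl, which were picked out after their values were seen. In the whole-array table after normalization, all probe sets were at least 2-fold lower in 1 of the 34, Usp6nl and not Tbc1d1. Usp6nl encodes a GAP with the same catalytic (TBC) domain.

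Low signals limit this result. The 95th percentile of signals called absent was 51.5 in undifferentiated and 68.3 in differentiated cells, so the differentiated signals of 1419446_at and 1419448_at lay under it although both were called present. Adding a pseudocount of 50 signal units took 1419448_at to -0.66 and left 2 of the 3 probe sets at least 2-fold lower. Raising all signals to the 60th percentile of the table reduced the difference of 1419447_s_at to -0.74, under 2-fold, and left the other probe sets unmeasured.

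The whole-array table gave Tbc1d1 no common direction. Its undifferentiated signals are the same, and its differentiated signals were 78.1 for 1419446_at, 596 for 1419447_s_at and 127 for 1419448_at. The first was 2.16-fold lower than in undifferentiated cells, the second 1.73-fold higher and the third 2.07-fold higher, as deposited. The table gives no errors. After quantile normalization of both arrays, with a floor at the 40th percentile (37.6 signal units), the log2 differences were -1.46, 0.91 and 0.63. Of the 3, 1 was at least 2-fold lower, against 22.0% of 31831 measured probe sets, and 0 were at least 2-fold higher, against 21.1%.

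Within Tbc1d1 the spread of this reading was wide. The log2 differences of its probe sets spanned 2.37, close to the median of 2.66 over the 34 genes, and 14 of the 34 had a narrower range. The mean over the 3 probe sets was 0.025 with an SD among them of 1.29, whereas in the regulator table it was -1.56 with an SD of 0.19. The differentiated reading of the whole-array table exceeded that of the regulator table by 1.54-fold for 1419446_at, 4.43-fold for 1419447_s_at and 6.20-fold for 1419448_at.

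**Figure D2:**
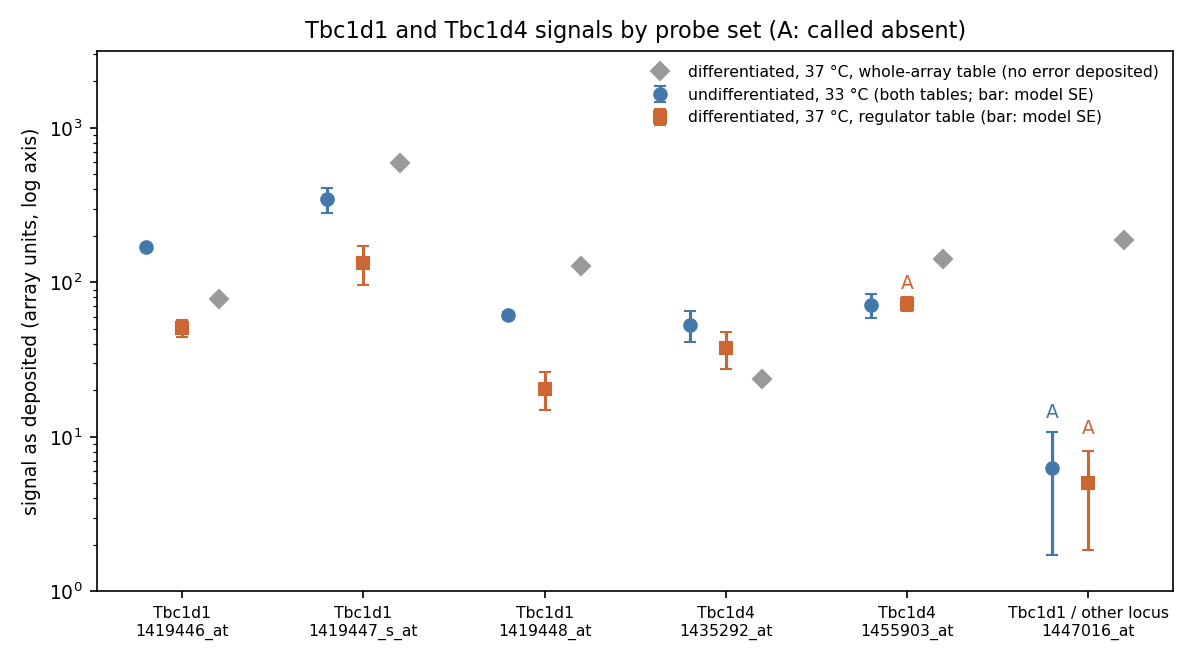
Deposited signals of each Tbc1d1 and Tbc1d4 probe set and of the shared probe set 1447016_at (x axis: probe set; y axis: signal in array units, log axis) in undifferentiated cells (circles), in differentiated cells of the regulator table (squares, both with model SE bars) and in differentiated cells of the whole-array table (diamonds, no error deposited); A marks an absent call. The squares lie below the circles for all 3 Tbc1d1 probe sets, while the diamonds lie below them for 1419446_at and above them for 1419447_s_at and 1419448_at.

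Control probe sets of the same whole-array table differed between its arrays in the balance of 3′ and 5′ signal, a sign of RNA integrity and labelling. The 3′ to 5′ ratio of Gapdh, a glycolytic enzyme used as a reference, was 0.868 on the undifferentiated and 3.77 on the differentiated array, and that of beta-actin was 1.09 and 1.54. The transferrin receptor had 1.94 and 1.82. Pyruvate carboxylase had 1.51 and 5.93, on weak signals of 140 (3′) and 23.6 (5′) on the differentiated array. The regulator table holds no such controls. The part of this balance in the Tbc1d1 values was not tested.

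Tbc1d4 was weak in both states. Probe set 1435292_at read 52.9 ± 12.0 in undifferentiated and 37.8 ± 10.1 in differentiated cells, and was called present in both. Probe set 1455903_at read 71.6 ± 12.8, present, and 72.9 ± 7.93, absent. In both probe sets the intervals of 1 model SE overlapped between states, and the undifferentiated signal of 1435292_at lay just above the 51.5 that marks the 95th percentile of absent calls.

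The log2 difference of 1435292_at was -0.48 ± 0.51, within 1 model SE of 0, and that of 1455903_at was 0.027 ± 0.30. Thus 0 of the 2 Tbc1d4 probe sets were past 2-fold in the regulator table, where 7.67% of the 313 probe sets present in at least 1 group were lower by 2-fold or more and 17.6% higher. With the medians of both columns set equal, 1435292_at moved to -1.15, past 2-fold lower, and 1455903_at to -0.63. The interval of 2 model SE around the value of 1435292_at ran from -1.50 to 0.53 and so holds both 0 and a 2-fold lower signal. The whole-array table had its 2 probe sets pointing opposite ways. Probe set 1435292_at was at 23.7 in differentiated cells and, after normalization, under the floor, so its log2 difference of -0.77 is a bound. Probe set 1455903_at was at 141, a log2 difference of 0.61.

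Set against each other in the regulator table, the log2 differences of Tbc1d1 were lower than those of Tbc1d4 in all 6 pairs of probe sets. The largest gap was -1.76 ± 0.35 (model SE) between 1419446_at and 1455903_at, and the smallest was -0.87 ± 0.70 between 1419447_s_at and 1435292_at. Of the 6 gaps, 4 exceeded 2 model SE and 2 did not, and the 3 gaps to 1455903_at include an absent call. The 6 gaps reuse the same log2 values of the same arrays, so they are not independent of each other. The model SE does not cover variation between arrays. A shift of all log2 signals of a column leaves these gaps as they are by arithmetic, so it is no check of them. A pseudocount of 50 signal units kept Tbc1d1 lower in all 6 pairs but brought 1419448_at and 1435292_at closer. Their log2 differences were then -0.66 and -0.23, against -1.58 and -0.48 without it. The percentile floor tried on the regulator table left no Tbc1d4 probe set measured, so the gaps could not be checked there. In the whole-array table, however, Tbc1d1 was lower in 2 of the 6 pairs and higher in 4. There the gap was -2.07 between 1419446_at and 1455903_at and 1.67, resting on a bound, between 1419447_s_at and 1435292_at. Levels of the 2 genes were not compared, since signals of different probe sets are on different scales.

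**Figure D3:**
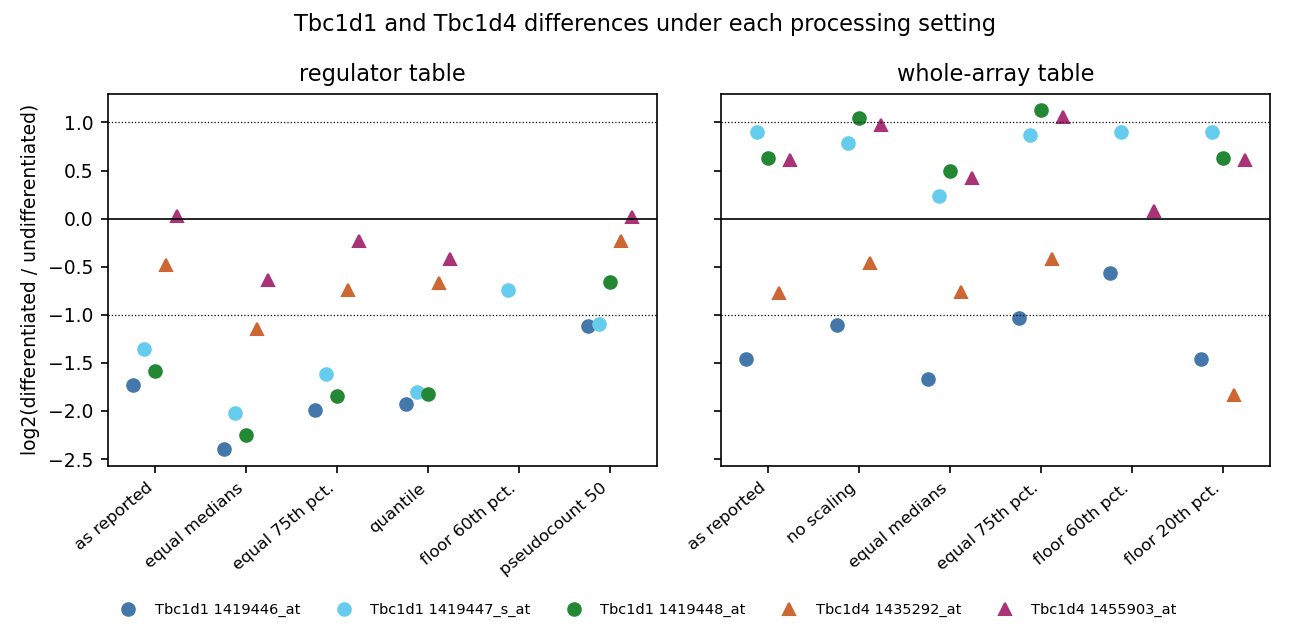
Log2(differentiated / undifferentiated) of each Tbc1d1 (circles) and Tbc1d4 (triangles) probe set under each scaling, floor or pseudocount (x axis), for the regulator table (left) and the whole-array table (right); solid line 0, dotted lines 2-fold, and a missing point means that the probe set was under the floor in both groups. On the left every Tbc1d1 point lies below 0, from -2.39 to -0.66; on the right 1419446_at lies below 0 and 1419447_s_at and 1419448_at above it in every setting that measured them.

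The list of TBC-domain genes, the family to which Tbc1d1 and Tbc1d4 belong, had 40 members, of which 24 were in the regulator table and 23 were measured there. Of the 23, 4 were higher in differentiated cells by 2-fold or more, 2 were lower by as much, and 17 lay within 2-fold. The background over all 151 measured genes was 18.5% higher and 6.62% lower. The list had a median log2 difference of 0.027, beside 0.17 for all 151 genes. These values are of the columns without rescaling. With the medians of both columns set equal, 2 of the 23 were higher and 6 lower. The background at that setting was not computed, so these 2 counts have no share to stand beside. Each gene stands here by its brightest probe set over both states, which is 1419447_s_at for Tbc1d1 and 1455903_at for Tbc1d4. By this measure Tbc1d1 had the lowest value of the 23 and the eighth lowest of the 151, and Tbc1d4 had the median value of the list. The lowest place depends on the probe set chosen. By the mean over probe sets present in both groups, Usp6nl was lower than Tbc1d1, at -1.73 against -1.56.

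The other gene of the family past 2-fold lower was Usp6nl (RN-tre), a GAP linked to endocytosis of growth factor receptors. Its brightest probe set read 1093 ± 125 in undifferentiated and 472 ± 70.0 in differentiated cells, a log2 difference of -1.21 ± 0.27. The whole-array value of that probe set was -1.07, so unlike the Tbc1d1 probe set it kept its sign. The other Usp6nl probe sets present in both groups had -2.04 and -1.94 in the regulator table. Tbc1d13, named after its values were seen, followed at -0.94 ± 0.13, with a whole-array value of -2.18. Close to it was Tbc1d7, a subunit of the tuberous sclerosis complex that restrains mTORC1 downstream of Akt, at -0.90 ± 0.50 in the regulator table and 0.39 in the whole-array table.

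The 4 higher members were Tbc1d9b (1.29 ± 0.17), Tbc1d24 (1.40 ± 0.09), Tbc1d2b (2.60 ± 0.61) and Tbc1d8, all as log2 differences in the regulator table. Tbc1d24 is known for its role at synaptic vesicles. Tbc1d8 was absent in undifferentiated cells at 5.09 and read 551 in differentiated cells, so its fold is a ratio to an undetected signal. Their whole-array values were 0.67, -0.68, 2.29 and 0.77, the last a bound.

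The 5 brightest of the remaining family members lay within 2-fold in the regulator table by construction, since members past 2-fold were named first. Tbc1d15, a GAP for Rab7 that acts at mitochondria, had 0.16 ± 0.24 on the log2 scale. Rabgap1 had 0.68 ± 0.22, Tbc1d20, a GAP for Rab1, had -0.41 ± 0.09, Tbc1d14, linked to autophagy, had -0.50 ± 0.34, and Tbc1d10b had -0.044 ± 0.21. The whole-array table gave -0.52 for Tbc1d15, -0.94 for Rabgap1, -1.004 for Tbc1d20, which is past 2-fold lower, -0.28 for Tbc1d14 and 0.14 for Tbc1d10b. In the whole-array table, 22 members were measured, 4 of them higher and 3 lower by 2-fold or more, with a median of 0.18. Of the 137 genes of the regulator table measured there, 14.6% were higher and 27.0% lower by as much, with a median of -0.16. Both comparisons share the undifferentiated array.

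**Figure D4:**
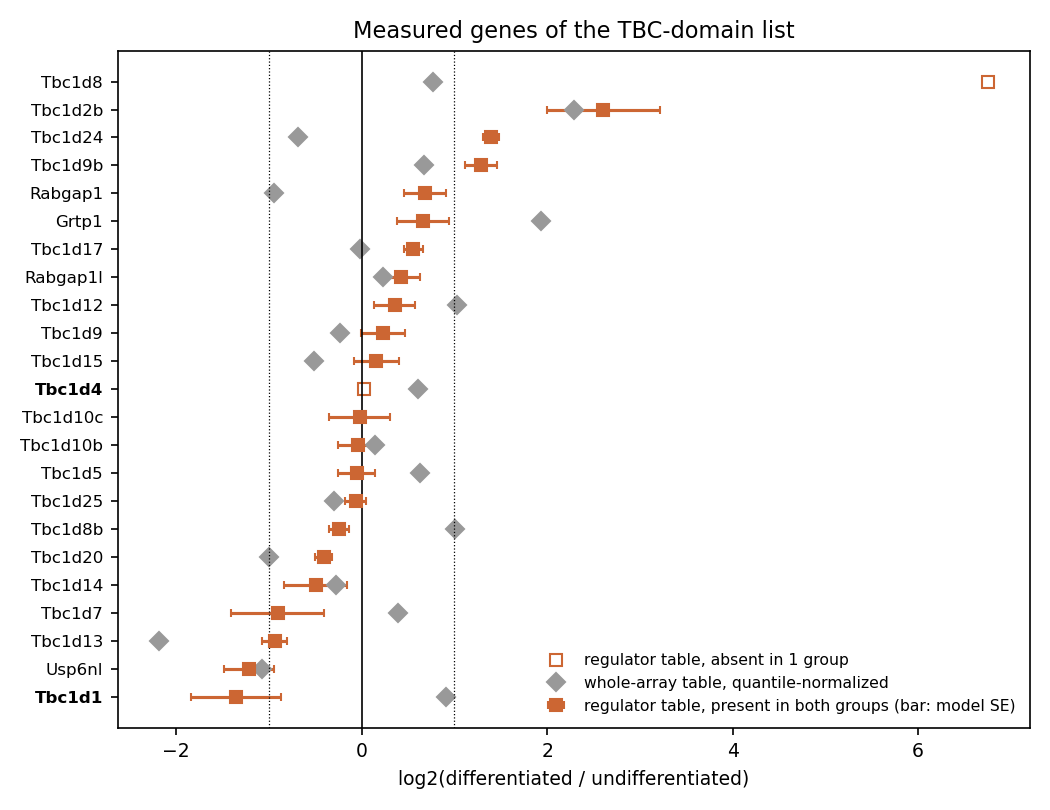
Log2(differentiated / undifferentiated) of the 23 measured TBC-domain genes (x axis), ordered by the regulator table (y axis: gene, Tbc1d1 and Tbc1d4 in bold); squares are that table with model SE bars, open squares genes absent in 1 group, diamonds the quantile-normalized whole-array table, dotted lines 2-fold. Tbc1d1 is lowest among the squares at -1.36, while its diamond lies at 0.91.

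Around Tbc1d1 and Tbc1d4 in the insulin pathway, 0 of 20 genes of the route from insulin receptor to GLUT4 were named in the table, so the receptor, Akt, AMPK, GLUT4 and the Rab substrates were not analysed here. The other GAPs that act downstream of Akt or AMPK were all measured. Tsc2 (tuberin), the GAP of Rheb that restrains mTORC1, had a log2 difference of 0.34 ± 0.11. The Ral GAP complex, also a target of Akt, had 0.076 ± 0.09 for Ralgapa1, 0.34 ± 0.27 for Ralgapb and 1.68 ± 0.32 for Ralgapa2. Of these 4 genes, 1 was at least 2-fold higher and 0 lower, with a median of 0.34, where 18.5% of all 151 genes were higher and 6.62% lower by as much and the median was 0.17. The whole-array table had 1 lower, Tsc2 at -2.23, and 0 higher, and the median was -0.49. Of the 137 genes of the regulator table measured there, 27.0% were lower and 14.6% higher by as much, with a median of -0.16.

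Among proteins that recycle Rabs between membrane and cytosol, the 3 genes described here lay within 2-fold in the regulator table. So did 113 of all 151 measured genes. Gdi2, a GDP dissociation inhibitor that extracts Rabs from membranes, had a log2 difference of -0.078 ± 0.09. The Rab escort proteins, which present new Rabs for lipid attachment, had 0.49 ± 0.06 (Chm) and -0.26 ± 0.09 (Chml). The whole-array values were 0.056 for Gdi2, 1.74 for Chm and 0.63 for Chml. That of Chm is past 2-fold higher, as were 14.6% of the 137 genes measured there.

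Likeness to Tbc1d1, represented by 1419447_s_at alone (-1.36 and 0.91), was measured as the Euclidean distance between the log2 differences of both sources, over 2 groups and 3 deposited columns, for 123 other genes present in both groups and measured in the whole-array table. The nearest was Rangap1, the GAP of Ran, at a distance of 0.31, with log2 differences of -1.51 in the regulator table and 0.64 in the whole-array table. Iqgap3, a scaffold protein of dividing cells, followed at 0.34, with -1.50 and 0.60. Tbc1d7 came next at 0.68. The Arf GAP Asap2 lay at 0.98, with -0.40 and 0.67, and the Rap GAP Rap1gap2 at 1.10, with -1.10 and -0.16. The last had the opposite sign to 1419447_s_at in the whole-array table. The 5 genes were chosen by these same log2 differences, so signs shared with that probe set follow largely from the choice. The other Tbc1d1 probe sets had -1.46 (1419446_at) and 0.63 (1419448_at) there.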

How the data were processed

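RNA of 1 undifferentiated and 1 differentiated culture of a mouse podocyte line was hybridized to Affymetrix 430v2 arrays and analysed by the authors with dChip, per the labels' protocols. Version, options and normalization are not given in the sources. It is also not stated whether both differentiated readings came from the same array. The authors deposited in 2 tables linear intensity values, with a detection call and standard error for 374 probe sets and no errors for the whole array (45037 probe sets and 64 controls). Columns were assigned by name. Gene IDs were matched to RefSeq names (167 of 168), and 8 probe sets with several gene IDs stayed out of gene counts. Regulator table signals were not rescaled, and errors were propagated from its standard errors. A signal called absent in 1 group was raised to the lowest present signal of that group where it lay under it. The whole-array table was raised to at least 1, log2-transformed, quantile-normalized and floored. A difference of at least 2-fold was called. Calculations used Python 3.11.15, numpy 2.4.6 and pandas 2.3.3, and were tested on simulated data. Scalings, floors, a pseudocount, thresholds and the choice of probe set were varied. Named were all members, TBC-domain genes past 2-fold, the 5 brightest others, members of 2 further lists and the 5 genes most like Tbc1d1. One member of the Rab recycling list is not reported here. The members, lists and rules were chosen with earlier results of these data known. The number of arrays limits the precision.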

Additional observations from a re-analysis of the deposited data

Results flagged for a closer look

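The shared probe set 1447016_at, which names Tbc1d1 beside a second locus and enters no comparison above, carried a signal in the whole-array table. It was at 188 in differentiated cells, against 6.27 ± 4.55 (model SE) in undifferentiated cells, where it was called absent. The regulator table called it absent in both groups, at 5.00 ± 3.14 in differentiated cells. After normalization its log2 difference in the whole-array table was 2.25, a bound, because the undifferentiated signal lay under the floor. The cause was not tested.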

How the results depend on the processing

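No paired analysis was possible because each group has 1 array, and for the same reason no array could be left out. For Tbc1d1 in the regulator table (-1.36), equal medians gave -2.02, a floor at the 60th percentile -0.74, and the whole-array table's differentiated column 0.79, the reversed sign, with 1.05 for 1419448_at. Equal 75th percentiles, quantile normalization, a pseudocount of 50 and the mean of probe sets kept it between -1.80 and -1.10. The probe set of lowest model SE, an alternative chosen after seeing the data, gave -1.73. In the whole-array table (0.91), equal medians gave 0.24 and the mean of probe sets 0.025. For the TBC-domain list in the regulator table (4 higher, 2 lower), equal medians gave 2 and 6, and the mean of probe sets 2 higher. Equal 75th percentiles, the whole-array table's column and a 1.5-fold threshold each gave 4 lower, the floor 1 lower, and a 4-fold threshold 2 higher and 0 lower. In the whole-array table (4 higher, 3 lower), equal medians gave 2 and 7, and the floor at the 60th percentile 2 higher. There a 1.5-fold threshold gave 9 and 5, and a 4-fold threshold 1 and 1. Shares over all measured genes were computed only for the main setting of each table. The list counts at the other settings thus have no share to stand beside and cannot be read as particular to the family. Requiring present calls in both groups left the count of Tbc1d1 probe sets at 3 by construction, since all were present in both. For single probe sets, equal medians took Tbc1d4 1435292_at to -1.15 and 1455903_at to -0.63 in the regulator table, a pseudocount of 50 took Tbc1d1 1419448_at to -0.66, and a floor at the 20th percentile took 1435292_at to -1.83 in the whole-array table. The cause of the reversal between sources was not tested. Low signals limit both genes, since 1435292_at of Tbc1d4 and, in differentiated cells, 1419446_at and 1419448_at of Tbc1d1 lie near or under the level of absent calls.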
